A study of Mus musculus with 4 samples.

Results

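The cells described here are CD4 T cells of the mouse liver that carried transcripts of an activation or memory gene but none of Foxp3, the master transcription factor of regulatory T cells. They were selected on measured values: a cell needed at least 1 UMI (a unique molecular identifier, which counts 1 captured RNA molecule) of Cd3e, Cd3d or Trac, at least 1 of Cd4, none of Cd8a, Cd8b1, Cd79a or Foxp3, and at least 1 of Tnfrsf4, Rora or Izumo1r. The rule kept 409 cells, out of 773 CD4 T cells of the same gate, 26825 cells past the depth and mitochondrial limits and 33198 barcodes in all. The other CD4 T cells were 336 cells with neither Foxp3 nor any of the 3 selecting genes, and 28 cells with Foxp3.

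Male C57BL/6J mice, 7 weeks old at the start, were fed a diet rich in fructose, palmitate, cholesterol and trans-fat (FPC), which induces steatohepatitis. The study asked how cholesterol in this diet, and its later reduction, acts on liver immune cells, which were collected by fine-needle biopsy. P-LC24 and P-HC24 were sampled at week 24 after FPC diet with 0.05% or 1.25% cholesterol, I-LC32 was sampled at week 32 after 0.05% cholesterol throughout, and I-HC32 was sampled at week 32 after 24 weeks at 1.25% and 8 weeks at 0.05%. Each of the 4 libraries pooled 4 biopsies from each of 3 mice, 12 biopsies in all, and the same mice were sampled at both times. All groups received the FPC diet, so none was a lean control. With 1 library per condition, diet, mice and library preparation cannot be told apart, no p-value is given, and each interval below is an exact 95% interval that covers counting error only. For a count of 0, the limit given is the share that 3 counts would make up, and not an exact interval. Where 4 values follow each other, they belong to P-LC24, then P-HC24, then I-LC32 and lastly I-HC32.

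A CD4 T cell that meets its antigen changes its surface and its gene program. It gains costimulatory receptors such as OX40, encoded by Tnfrsf4, and ICOS, which sustain the response through NF-kB and PI3K signalling, and it loses the lymph node homing receptors of naive cells. Rora encodes a nuclear receptor found in effector and tissue-resident T cells, and Izumo1r encodes folate receptor 4, a surface protein of regulatory, anergic and follicular helper T cells. In fatty liver disease such cells are known as a source of cytokines that act on macrophages and hepatocytes.

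On the mouse genome GRCm39, Tnfrsf4 is on chromosome 4 (156098293 to 156101069, plus strand), Rora on chromosome 9 (68561068 to 69295528, plus strand), Izumo1r on chromosome 9 (14797110 to 14815245, minus strand), Cd4 on chromosome 6 (124841655 to 124874758, minus strand) and Icos on chromosome 1 (61017086 to 61039479, plus strand). All are annotated as protein-coding genes.

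The class held 58, 52, 143 and 156 cells in the 4 libraries. It made up 38.7% (interval 30.8 to 47.0), 47.7% (38.1 to 57.5), 54.2% (47.9 to 60.3) and 62.4% (56.1 to 68.4) of CD4 T cells. Within each cholesterol history the share was higher at week 32 than at week 24, and within each week it was higher in the high-cholesterol library, although the intervals of the diet pairs overlapped. With each cell thinned to 2000 UMIs the week 24 pair changed order, at 25.8% and 24.5%. Of all T cells without a Cd79a UMI, the class was 5.81% (4.44 to 7.45), 5.08% (3.82 to 6.61), 9.37% (7.96 to 10.9) and 15.8% (13.6 to 18.3). On this denominator the interval of I-HC32 stood above those of the other 3 libraries, and the week 24 pair could not be separated at this depth. The CD4 gate itself was also lowest in P-HC24 and highest in I-HC32, at 15.0%, 10.7%, 17.3% and 25.4% of these T cells. T cells without any Cd4 or Cd8 UMI, in which CD4 cells of low capture may be hidden, made up 21.6%, 31.9%, 29.0% and 40.1%. T cells set aside for a Cd79a UMI made up 16.2%, 31.1%, 26.8% and 35.9% of all T cells, and the part that this loss has in the shares was not tested.

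**Figure D1:**
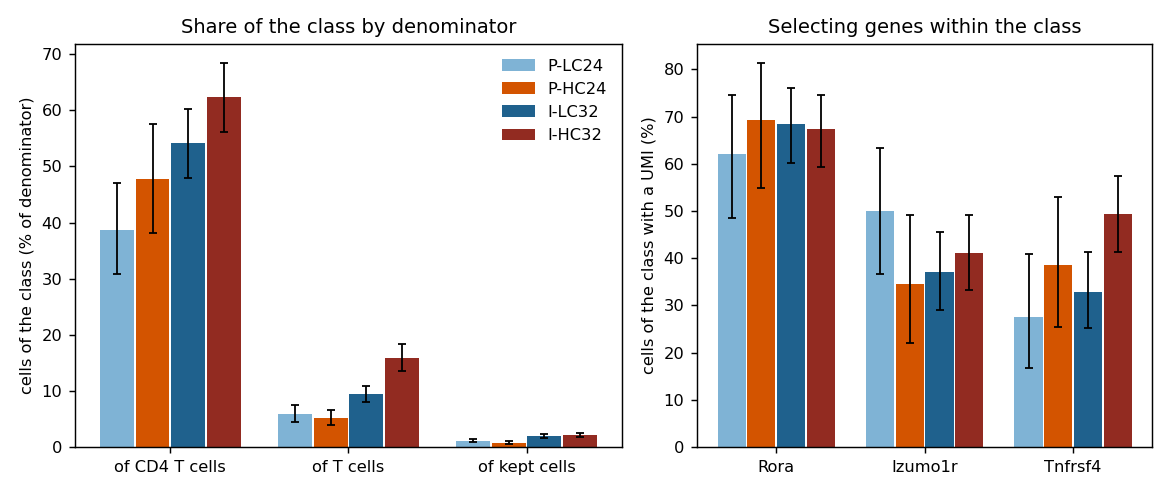
Left: share of the activated CD4 T cells without Foxp3 in each library, in percent of CD4 T cells, of T cells and of all kept cells. Right: percent of these cells with at least 1 UMI of each selecting gene. Bars are 1 library each and lines are exact 95% counting intervals. I-HC32 had the highest share on each denominator (at a mitochondrial limit of 5% its share of kept cells, 2.59%, was below the 2.85% of I-LC32). Tnfrsf4 was found in 49.4% of the cells of I-HC32 against 27.6% in P-LC24, and the shares of the selecting genes depend on each other through the rule.

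Rora brought in most of the class. At least 1 Rora UMI was found in 275 of the 409 cells (67.2%), Izumo1r in 164 (40.1%) and Tnfrsf4 in 160 (39.1%), and 38 cells (9.29%) had all 3 genes. By library, the share of cells with Rora was 62.1%, 69.2%, 68.5% and 67.3%. Izumo1r was found in 50%, 34.6%, 37.1% and 41.0%. Tnfrsf4 was found in 27.6% (16.7 to 40.9), 38.5% (25.3 to 53.0), 32.9% (25.2 to 41.2) and 49.4% (41.3 to 57.5). The mix of entry genes was therefore alike for Rora across libraries, while Tnfrsf4 was most frequent in I-HC32 and within each week was more frequent in the high-cholesterol library. The intervals overlapped at week 24, and at week 32 they parted only narrowly, at 41.2 and 41.3. Each cell had to carry at least 1 of the 3 genes, so these shares depend on each other through the rule and are a description only. B cells, which should lack these genes, were used as a guide to stray RNA. Tnfrsf4 was found in 0.584 to 0.841% of them, Izumo1r in 0.195 to 0.379%, Rora in 1.08 to 2.50% and Cd4 in 0.0652 to 0.215%. Their median depths were 5899 to 8844 UMIs, against 5976 to 7558 in the class. The T cell genes Cd3d, Cd3e and Trac cannot be checked in B cells, because the B cell gate required them to be 0. That condition also left out B cells with stray RNA of these genes, so the shares above may understate the stray RNA of T cells.

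Many cells entered by a narrow margin. Of the 409 cells, 123 had exactly 1 UMI of the 3 selecting genes, 61 had 2 and 225 had 3 or more, and 205 had exactly 1 UMI of Cd4. The 123 cells just inside the limit lay between the rest of the class and the cells just outside it. Cd44, the hyaluronan receptor of antigen-experienced T cells, was found in 26.0% of them, against 61.9% of the 286 cells with 2 or more UMIs and 15.8% of the 336 cells with none. Satb1, a chromatin organiser of naive T cells, was found in 76.4%, 45.5% and 91.1% in that order, and Itgb1, the beta1 integrin chain of memory cells, in 40.7%, 73.1% and 17%. Pdcd1, which encodes the inhibitory receptor PD-1, was found in 2.44%, 25.2% and 1.79%, so on this gene the marginal cells matched the cells outside. Median depths inside the limit were 6274 UMIs for 1 and 6621 UMIs for 2 or more. The word activated thus describes the rule and not each cell: Lef1, a transcription factor of naive T cells, was still found in 84.6% of the 123 marginal cells and in 70.6% of the others.

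The selecting genes marked cells of different character. The 2 kinds with Izumo1r were formed with or without Tnfrsf4, so the 75 cells with Rora and Izumo1r include the 38 with all 3 genes. Cells with Tnfrsf4 and Rora had no Izumo1r UMI. Cells with Izumo1r and no Rora (89 cells) had naive transcripts most often, with Lef1 in 91.0%, Ccr7, the homing receptor for lymph nodes, in 69.7% and Cd44 in 30.3%. Cells with Rora alone (148 cells) held the cytotoxic and chemokine transcripts, with Nkg7, a cytotoxic granule protein, in 50.7%, the chemokine Ccl5 in 49.3% and Cxcr3, the receptor for interferon-induced chemokines, in 40.5%. Cells with both Rora and Izumo1r (75 cells) had the checkpoint and follicular transcripts most often, with the inhibitory receptor Ctla4 in 73.3%, Ikzf2, which encodes Helios, in 56.0%, the follicular homing receptor Cxcr5 in 30.7% and the cytokine Ifng in 24.0%. Cells with Tnfrsf4 and Rora (52 cells) stood farthest from the naive state, with Itgb1 in 94.2%, the calcium-binding protein S100a4 in 78.8% and Pdcd1 in 38.5%. Cells with Tnfrsf4 alone (45 cells) combined Tnfrsf18, a costimulatory receptor known as GITR, in 75.6% with Il2ra, the high-affinity IL-2 receptor chain, in 20% and Il1rl1, the IL-33 receptor known as ST2, in 17.8%. In the other kinds Il2ra was found in 2.67 to 5.77% of cells, and Il1rl1 was found in 15.4% of cells with Tnfrsf4 and Rora and 2.25 to 2.70% of the other 3 kinds. These shares pool the 4 libraries and describe cells, not replicates.

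**Figure D2:**
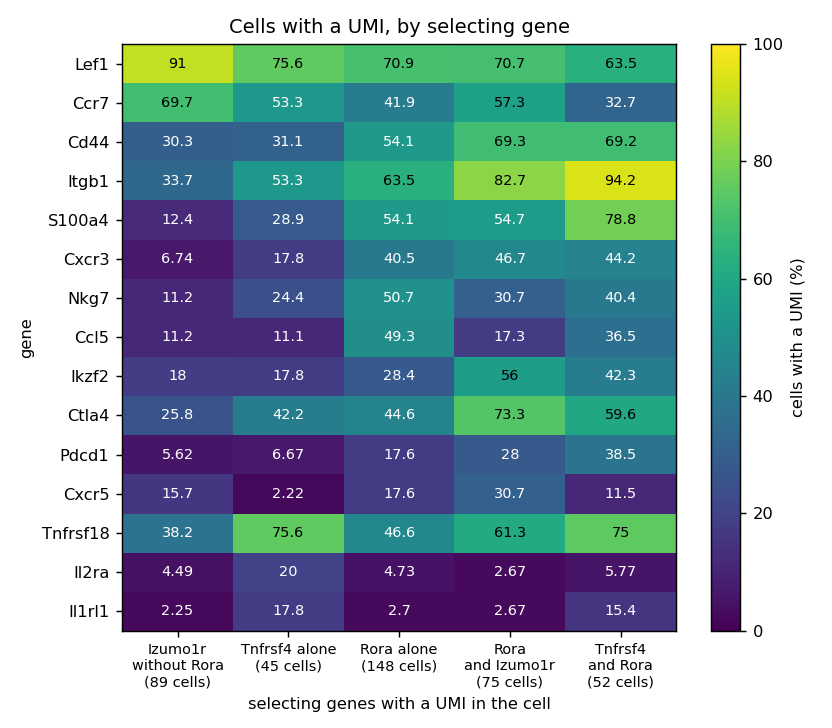
Percent of cells with at least 1 UMI of each gene (rows), for the 5 kinds of activated CD4 T cells without Foxp3 (columns) defined by which selecting gene was present, with the 4 libraries pooled. The kinds with Izumo1r hold cells with and without Tnfrsf4. The naive genes Lef1 and Ccr7 were most frequent in cells with Izumo1r and no Rora, Nkg7 and Ccl5 in cells with Rora alone, Ctla4 and Ikzf2 in cells with Rora and Izumo1r, and Il2ra and Il1rl1 in cells with Tnfrsf4 alone.

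Against the 336 other CD4 T cells, the class carried a memory and effector profile in every library. The rule separated these 2 classes by measured genes, so the differences are a description. Icos, a marker the rule did not use, was found in 75.9% (62.8 to 86.1), 76.9% (63.2 to 87.5), 57.3% (48.8 to 65.6) and 73.1% (65.4 to 79.9) of the class, and in 58.8%, 46.4%, 41.1% and 60.2% of other CD4 T cells. B cells had it in 0.282 to 0.644%. Icos was therefore frequent on both sides and higher in the class, and its CPM (summed UMIs scaled to the total of the class in that library) were higher by 0.85, 0.98, 1.41 and 0.91 on the log2 scale. Cd44 was found in 44.8%, 46.2%, 51.7% and 54.5% of the class and in 12.9%, 10.7%, 17.8% and 19.3% of the others. Ccr7 showed the reverse and was found in 60.3%, 55.8%, 45.5% and 50.6% against 78.8%, 78.6%, 75.7% and 79.5%. The class thus had fewer cells with naive transcripts, yet Ccr7 was still present in 45.5 to 60.3% of it.

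Across all genes with at least 100 UMIs over both classes, 204 of 5938 (3.44%) were at least 1.5-fold higher in the class in all 4 libraries and 17 (0.286%) were lower in all 4. Of the 204, 16 had no UMI on a side in a library. The count rested on Rora: where Rora was not used for selection, so that its cells joined the other side, 34 genes were higher and 8 lower. Leaving out each library in turn, in the same order, gave 41, 45, 29 and 32 lower genes. The median gene was 0.21, 0.16, 0.11 and 0.13 higher on the log2 scale, and the ribosomal protein share of UMIs was lower in the class, with medians of 24.0%, 30.4%, 24.1% and 24.3% against 33.7%, 35.4%, 31.2% and 32.4%. Of 16 measured activation and memory genes, 13 were higher in all 4 libraries, against the background of 3.44%. Of 17 naive and quiescence genes, 2 were lower in all 4, Satb1 and Actn1. None of 89 ribosomal protein genes, 39 nuclear genes of oxidative phosphorylation or 13 immediate early genes passed the limit in all 4 libraries in either direction, although 77 of the ribosomal protein genes were lower in each library by less.

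Itgb1 and S100a4 were among the clearest memory genes. Itgb1 was found in 60.3%, 57.7%, 62.2% and 67.3% of the class and in 12.9%, 16.1%, 20.6% and 17% of other CD4 T cells, and its log2 ratios were 3.60 (3.07 to 4.17), 2.30 (1.73 to 2.91), 2.16 (1.82 to 2.52) and 2.26 (1.85 to 2.70). S100a4 was found in 37.9%, 46.2%, 46.9% and 46.8% against 1.18%, 10.7%, 9.35% and 10.2%. These 2 genes, with Cd44 and Ccr7, are also abundant in B cells: Itgb1 was found in 28.2 to 57.8% of B cells and S100a4 in 17.9 to 48.3%, and the part of B cell RNA in their values was not tested. Cxcr3 was scarce in B cells (0.829 to 1.99%) and gave the same picture, with 32.8%, 28.8%, 34.3% and 31.4% of the class against 3.53%, 5.36%, 4.67% and 4.55% of the others. Il2rb, the beta chain of the IL-2 and IL-15 receptors, was found in 39.7%, 44.2%, 47.6% and 51.3% against 5.88%, 12.5%, 12.1% and 15.9%.

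Genes of type 1 helper cells, which make interferon gamma, were at least 1.5-fold higher in the class in all 4 libraries in 8 of 10 measured cases, where 3.44% of all genes were. The transcription factor Tbx21 was found in 8.62%, 15.4%, 18.9% and 16.7% of the class, against 1.14 to 3.53% of the other CD4 T cells, and Ifng in 19.0%, 5.77%, 9.79% and 7.69%, against 1.14 to 3.53%. Nkg7 was found in 29.3%, 26.9%, 38.5% and 34.6% against 7.06%, 7.14%, 9.35% and 4.55%, and Ccl5 in 32.8%, 25.0%, 33.6% and 25.6% against 12.9%, 5.36%, 8.41% and 7.95%. The type 2 factor Gata3 was less specific, at 34.5%, 25.0%, 46.9% and 44.9% against 35.3%, 23.2%, 31.8% and 17%, and was higher in CPM by 0.86 (0.23 to 1.5), 0.09 (-0.92 to 1.11), 1.2 (0.70 to 1.73) and 1.65 (1.09 to 2.25) on the log2 scale. No cell of the class had a UMI of the type 17 cytokine Il17a, and 0 of 409 cells allows a share of up to 0.733%. Of the natural killer T markers, 2 could be compared, and Il2rb led this list. Its median log2 ratios over other CD4 T cells were 1.74, 1.60, 1.97 and 1.06, with 1 of the 2 genes lower in P-LC24. The rule did not exclude natural killer T cells, and their part in the values of this paragraph was not tested. Trdc, the delta chain constant region, led the gamma delta T markers in 3 libraries, with any of 7 such markers in 3.45 to 5.77% of the class.

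Ikzf2, Nrp1, Runx2, Pard3, Cxcr3, Farp1, Eea1, Ccr2, Itgb1, Nebl, Il2rb, S100a4, Nkg7 and Nt5e had the highest ratios to other CD4 T cells, ranked by the library in which the ratio was nearest to 1. Ikzf2, best known from regulatory T cells, led this order: it was found in 25.9%, 28.8%, 30.1% and 36.5% of the class and in 3.53%, 5.36%, 3.74% and 6.82% of the others, with log2 ratios of 5.16 (3.90 to 6.81), 4.36 (2.96 to 6.27), 3.22 (2.49 to 4.06) and 3.01 (2.40 to 3.68). Nrp1, the semaphorin receptor neuropilin-1, was found in 31.0%, 25.0%, 19.6% and 25.0% against 4.71%, 1.79%, 3.74% and 5.68%. Runx2, a transcription factor of long-lived memory cells, was found in 25.9%, 19.2%, 23.8% and 18.6% against 2.35%, 3.57%, 3.74% and 1.14%. Nt5e, the ectoenzyme CD73 that makes adenosine, was found in 22.4%, 28.8%, 30.1% and 38.5% against 9.41%, 5.36%, 10.3% and 17%. The lowest ratios belonged to Satb1, Actn1, Patj, Cmah, Siah1a, Magi3, Zfp281, Cd55, Maml3 and Ndrg3. Satb1 was found in 56.9%, 59.6%, 50.3% and 56.4% of the class and in 95.3%, 91.1%, 86.9% and 92.0% of the others, and its log2 ratios were -0.72 (-0.87 to -0.57), -1.41 (-1.65 to -1.17), -1.02 (-1.17 to -0.86) and -1.18 (-1.31 to -1.04).

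Of 6 coinhibitory genes, 4 were at least 1.5-fold higher in all 4 libraries, beside 3.44% of all genes. Pdcd1 was found in 12.1%, 25.0%, 15.4% and 21.2% of the class, and in 0 of 85 and 0 of 56 (which allow up to 3.53% and 5.36%), 1.87% and 4.55% of the other CD4 T cells. Set against a limit of 3 UMIs for a count of 0, at week 24 its CPM was at least 6.77-fold and at least 6.02-fold higher, and at week 32 the log2 ratios were 3.87 (1.93 to 6.96) and 2.12 (1.06 to 3.38). Ctla4 was found in 32.8%, 36.5%, 45.5% and 58.3% against 18.8%, 26.8%, 18.7% and 29.5%, with 15.2 to 41.6% of B cells also positive. Maf, a transcription factor of IL-10-producing and follicular helper cells, was found in 41.4%, 48.1%, 32.9% and 37.8% against 4.71%, 7.14%, 11.2% and 9.09%. Bcl6, the factor that defines follicular helper cells, did not separate the classes, at 34.5%, 28.8%, 24.5% and 28.8% against 23.5%, 30.4%, 28.0% and 30.7%.

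**Figure D3:**
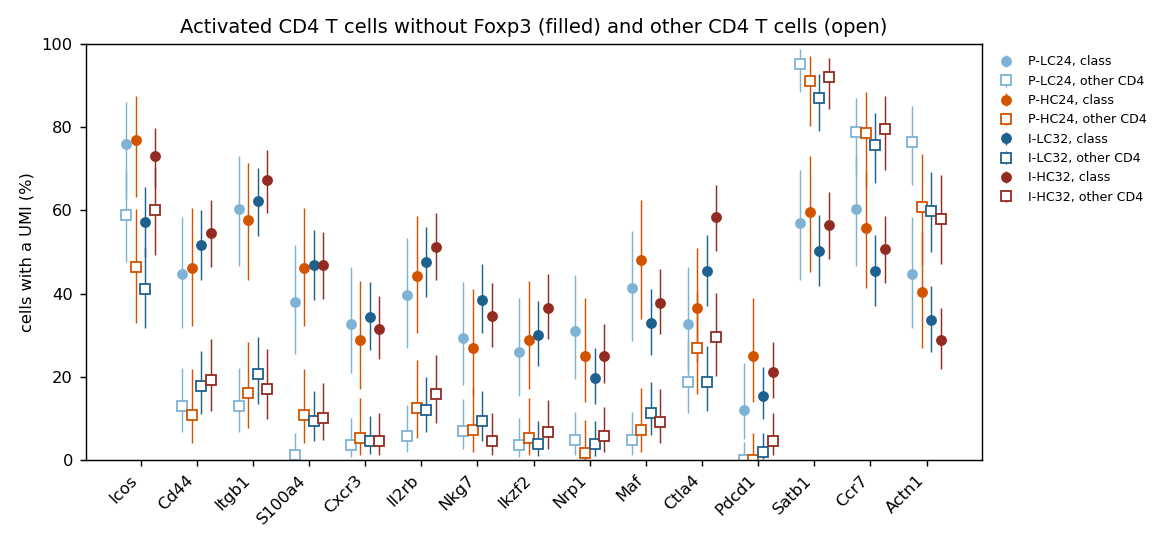
Percent of cells with at least 1 UMI of each gene in the activated CD4 T cells without Foxp3 (filled circles) and in other CD4 T cells (open squares), by library, with exact 95% counting intervals. Itgb1, Cxcr3, Il2rb, Ikzf2, Nrp1, Maf and Pdcd1 were more frequent in the class in each library, and Satb1, Ccr7 and Actn1 less frequent.

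Ikzf2, Nrp1 and Ctla4 are shared with regulatory T cells, so the class was also set beside the Foxp3 cells. The Foxp3 class held only 7, 1, 14 and 6 cells in the 4 libraries. Ikzf2 was found in each of its 7, 1 and 14 cells of P-LC24, P-HC24 and I-LC32 and in 83.3% of those of I-HC32, and the log2 ratios of the class over it were -3.13 (-3.52 to -2.75), -2.38 (-3.42 to -1.13), -3.69 (-3.95 to -3.44) and -2.31 (-2.66 to -1.96). The median gene of this comparison lay at -0.15, -2.35, -0.03 and 0.08, so the value of P-HC24, which has 1 Foxp3 cell, was close to the shift of all genes there. Ctla4 was found in every Foxp3 cell. Of 4551 genes, 44 (0.967%) were at least 1.5-fold lower than in Foxp3 cells in all 4 libraries, led by Ikzf2, Ctla4, Sh3bgrl, Itgav, Snx13, Vps54, Zfp36, Tank, P4ha1 and B3gnt2, and 153 (3.36%) were higher. Of those 153, 147 had no UMI on a side in a library, so the count rests on the few Foxp3 cells. Leaving out each library in turn gave 311, 207, 436 and 299 higher genes and 78, 110, 105 and 141 lower ones. Ccl5 and Cd40lg, the ligand with which helper cells license B cells, illustrate this: Cd40lg had 99, 34, 84 and 93 UMIs in the class and 0, 0, 1 and 0 in Foxp3 cells. The Foxp3-negative class thus held the transcripts of Ikzf2 at a level between the other 2 CD4 classes in the libraries other than P-HC24, and whether some of its cells lost Foxp3 to sampling depth was not tested.

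Cells with macrophage or B cell transcripts were present inside the gate and bear on every comparison of diets. The macrophage marker list had 7, 2748, 206 and 1504 UMIs over the whole class. In P-HC24, 2641 of the 2748 came from 1 cell. Counting cells with at least 10 macrophage or B cell marker UMIs gave 0, 2, 1 and 4 cells of the class, and the counts of each diet comparison below are given with and without them, a step chosen after the data had been seen. Lyz2, the macrophage lysozyme, was found in 5.17%, 38.5%, 14.7% and 68.6% of the class and in 8.97%, 50.6%, 12% and 72.8% of B cells, so its spread over cells followed the library in both. No doublet scores were used to form the class. The rule left out cells with a Cd79a, Cd8a or Cd8b1 UMI and had no condition on macrophage genes. The haemoglobin list had 554, 116, 24299 and 167 UMIs in the class.

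In the progression comparison, P-HC24 over P-LC24, the class of the high-cholesterol library had fewer transcripts of most naive and some T cell signalling genes and more of Vim, Crip1 and S100a4. Among 1295 genes with 100 UMIs or more over both libraries, 120 (9.27%) had a CPM 1.5-fold or more above that of P-LC24 and 316 (24.4%) one as far below. Without the marker-rich cells, 70 of 1173 (5.97%) were higher and 250 (21.3%) lower. The median gene lay at -0.17 on the log2 scale with all cells and at -0.13 without them, so single genes are to be read against that shift. Other marks of the RNA moved with it. The median mitochondrial share of a cell was 3.51% at low and 4.76% at high cholesterol, 9 of 12 mitochondrial genes lay above 0 with a median of 0.41, 27 of 33 nuclear genes of oxidative phosphorylation with a median of 0.30, and 63 of 82 ribosomal protein genes with a median of 0.23. Their part in the differences below was not tested.

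The 12 highest genes of this comparison were macrophage genes or genes carried by the same cells: C1qb, C1qc, C1qa, Cxcl13, Apoe, Ifitm3, Alox15, Lyz2, Pf4, Fn1, Slpi and Cxcl2. Lyz2 had 2034 UMIs in P-HC24 against 3 in P-LC24, and 98.8% of the 2034 lay in the 2 marker-rich cells. C1qa, a complement component of macrophages, had 273 UMIs in P-HC24, all of them in these cells. Without these cells the highest genes included Cdk6, Vim, Rhoh, Jun and S100a4, with smaller ratios.

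Of 16 measured naive and quiescence genes, 10 were lower in P-HC24 by 1.5-fold or more and none higher, against a background of 24.4% lower, and the median over the list was -0.80 against -0.17 for all genes. Without the marker-rich cells, 9 of 16 were lower. Satb1 had 501 UMIs in 58 cells at low and 210 in 52 cells at high cholesterol, a log2 ratio of -1.19 (-1.43 to -0.95), or -1.07 (-1.32 to -0.82) without the marker-rich cells. Tcf7, which encodes TCF-1, a factor of naive and stem-like memory cells, had 178 and 80 UMIs, a log2 ratio of -1.09 (-1.49 to -0.70), or -0.90 (-1.31 to -0.51) without those cells. Dapl1, a small protein of naive T cells, had 85 and 25 UMIs, a log2 ratio of -1.70 (-2.40 to -1.04), or -1.44 (-2.15 to -0.78). Lef1 followed at -1.0 (-1.26 to -0.74), Foxp1 at -0.82 (-1.03 to -0.60) and the IL-7 receptor Il7r at -0.73 (-0.92 to -0.55).

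The same direction was found in other classes, to differing extent. The list of naive genes had a median of -0.37 in other CD4 T cells, -0.38 in CD8 T cells and -0.69 in B cells over the same 16 genes. Lef1, at -1.0 in the class, was at -0.87 (-1.07 to -0.66) in other CD4 T cells. For Satb1, other CD4 T cells had -0.50 (-0.65 to -0.35) and CD8 T cells -0.21 (-0.27 to -0.16), both nearer to 0 than the class. Dapl1, at -1.70 in the class, was at -0.24 (-0.67 to 0.17) in other CD4 T cells and -0.08 (-0.20 to 0.04) in CD8 T cells, and these differences between classes were not tested.

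Genes of T cell receptor signalling were lower in P-HC24 in 7 of 12 cases, with a list median of -0.72, beside 24.4% of all genes and a median of -0.17. There were 6 of 12 lower without the marker-rich cells, beside 21.3%. Prkcq, the protein kinase C of the immune synapse, had 275 and 131 UMIs, a log2 ratio of -1.0 (-1.32 to -0.70), or -0.85 (-1.17 to -0.54) without the marker-rich cells, and 420 and 92 UMIs in other CD4 T cells, a log2 ratio of -1.44 (-1.79 to -1.12). Over the same 12 genes the median was -0.47 in other CD4 T cells and -0.59 in CD8 T cells. Cd40lg was lower in the class with 99 UMIs against 34, a log2 ratio of -1.48 (-2.08 to -0.90), and other CD4 T cells had -0.39 (-0.96 to 0.16). Cd247, Cd5, Bcl11b and Cd28 were the other T cell identity genes past 1.5-fold, between -0.92 and -0.66, which made 5 of 11 with all cells and 4 of 11 without the marker-rich cells.

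Of 15 activation and memory genes, 4 were higher in P-HC24 and Itgb1 was lower, with the same counts of 14 genes without the marker-rich cells, beside 9.27% higher and 24.4% lower among all genes. Vim, the intermediate filament vimentin, had 149 and 353 UMIs, a log2 ratio of 1.31 (1.03 to 1.60), or 1.19 (0.90 to 1.49) without the marker-rich cells. S100a4 had 128 and 242 UMIs, a log2 ratio of 0.99 (0.67 to 1.31), Crip1, a small LIM protein of memory cells, had 0.94 (0.79 to 1.10) and the galectin Lgals1 0.69 (0.37 to 1.01). Vim was also higher in other CD4 T cells, CD8 T cells and B cells, by 1.11 (0.78 to 1.44), 1.24 (1.14 to 1.33) and 0.99 (0.97 to 1.01), and Crip1 by 0.99, 0.79 and 0.62. Vim and Crip1 were thus higher in each of the 4 lymphocyte classes compared. Itgb1 had 267 and 163 UMIs, a log2 ratio of -0.65 (-0.94 to -0.36). None of 5 measured type 1 helper genes passed 1.5-fold in the class. In other CD4 T cells 3 of these 5 were higher and 2 lower. Of the same 15 activation and memory genes, other CD4 T cells had 12 higher and 1 lower. The list median was 1.11 there and 0.20 in the class.

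Immediate early genes, the first to be transcribed after stimulation or tissue handling, depended on the marker-rich cells. With all cells, 4 of 11 were higher in P-HC24 and 0 lower, beside 9.27% higher and 24.4% lower among all genes. Without the marker-rich cells 2 of 9 were higher and 1 lower, beside 5.97% and 21.3%. Zfp36 had a log2 ratio of 1.31 with all cells and -0.45 without, and Jun had 1.52 (1.01 to 2.06) with all cells and 1.01 without. Over the same 11 genes, other CD4 T cells had 6 higher and 1 lower, with a median of 0.63 against 0.54 in the class.

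In the intervention comparison, I-HC32 over I-LC32, both libraries were sampled on 0.05% cholesterol and differed in the first 24 weeks. The class of I-HC32 had more transcripts of some immediate early and cytokine receptor genes, of Tnfsf11, Nt5e and Il1rl1, and fewer of S100a4, Ccl5 and Cxcr6. Of 3383 genes, 228 (6.74%) were higher by 1.5-fold or more and 92 (2.72%) lower. Without the marker-rich cells, 202 of 3238 (6.24%) were higher and 88 (2.72%) lower. The median gene was at 0.05 on the log2 scale, and whether parts of the genes shifted together in a library was not tested.

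Of 13 immediate early genes, 6 were higher in I-HC32, beside 6.74% of all genes, and 6 were higher without the marker-rich cells. Egr1 had 51 and 150 UMIs, a log2 ratio of 1.32 (0.85 to 1.80), and Btg2, an antiproliferative gene, had 344 and 721, a log2 ratio of 0.83 (0.64 to 1.02). Nr4a1, a nuclear receptor induced by antigen receptor signalling, had 54 and 128 UMIs, a log2 ratio of 1.00 (0.54 to 1.49), and was at -0.53 (-1.14 to 0.07) in other CD4 T cells. Egr1 and Btg2 were also higher in other CD4 T cells, by 1.10 (0.53 to 1.69) and 0.66 (0.41 to 0.92). Egr1 was at 1.11 and Nr4a1 at 0.83 without the marker-rich cells. The heat shock list, another mark of cell stress, moved in the same comparison: 7 of 8 genes lay above 0, 2 of them past 1.5-fold, with a median of 0.47 in the class, 0.35 in other CD4 T cells, 0.35 in CD8 T cells and 0.75 in B cells. The part of tissue handling in these values was not tested.

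Of 13 cytokine receptor genes, 4 were higher in I-HC32 and none lower, or 4 of 12 without the marker-rich cells, beside 6.74% and 6.24% of all genes. Ifnar1, a chain of the type I interferon receptor, had 67 and 170 UMIs, a log2 ratio of 1.10 (0.69 to 1.53), and the IL-4 receptor chain Il4ra had 54 and 129, a log2 ratio of 1.02 (0.55 to 1.5). Other CD4 T cells had 0.70 (0.08 to 1.34) for Ifnar1 and 0.55 (0.01 to 1.10) for Il4ra, and CD8 T cells had 0.64 and 0.57. Il6st and Il21r completed the group, at 0.70 (0.25 to 1.16) and 0.59. Downstream of the IL-2 and IL-7 receptors, Stat5a was higher by 0.84 (0.30 to 1.40) and its inhibitor Socs1 by 0.74 (0.39 to 1.09). Among 18 receptor signalling genes 3 were higher with or without the marker-rich cells, Malt1 at 0.91 (0.69 to 1.14) and Nfkb1 at 0.74 (0.53 to 0.95) among them.

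Among costimulatory and coinhibitory genes, 2 of 11 and 2 of 5 were higher, beside 6.74% of all genes. In the former list 3 of 11 were higher and 1 lower without the marker-rich cells, and in the latter 3 of 5 were higher. Tnfsf11, the ligand RANKL, had 53 and 152 UMIs, a log2 ratio of 1.28 (0.82 to 1.76), and CD8 T cells had 3.12 (2.48 to 3.82). Nt5e had 89 and 272 UMIs, a log2 ratio of 1.37 (1.02 to 1.73), or 1.42 (1.07 to 1.79) without the marker-rich cells. Nt5e in CD8 T cells was at 0.03 (-0.23 to 0.29), in other CD4 T cells at 0.66 (-0.32 to 1.66) and in B cells at 0.36 (0.27 to 0.44), so its ratio was highest in the class, and the difference between classes was not tested. Ikzf2 was higher by 0.60 (0.35 to 0.84) and Nrp1 by 0.59 (0.12 to 1.08). In other CD4 T cells 3 of the 11 costimulatory genes were higher and 2 lower, and 3 of the 5 coinhibitory genes were higher.

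Of 8 type 1 helper genes, 3 were lower in I-HC32 with or without the marker-rich cells, beside 2.72% of all genes. Il18rap, a chain of the IL-18 receptor, had 77 and 41 UMIs, a log2 ratio of -1.15 (-1.73 to -0.58). Cxcr6, the homing receptor of liver-resident T cells, had 61 and 40, a log2 ratio of -0.85 (-1.46 to -0.25), and Ccl5 had 2671 and 1922, a log2 ratio of -0.72 (-0.80 to -0.63). Ccl5 was also lower in other CD4 T cells, at -0.95 (-1.23 to -0.68), where 4 of the 8 type 1 helper genes were lower and 1 higher. S100a4 had 794 and 493 UMIs, a log2 ratio of -0.93 (-1.09 to -0.76), and CD8 T cells had -1.12 (-1.27 to -0.98). Naive genes were level, with none of 17 higher and Igfbp4 alone lower.

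**Figure D4:**
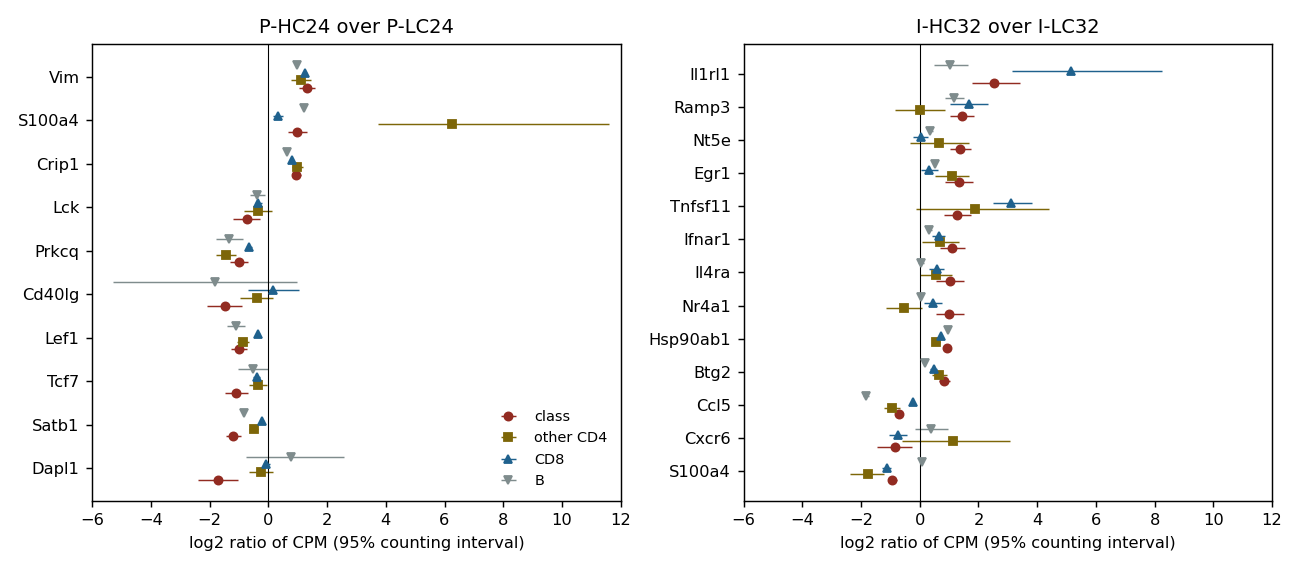
Log2 ratio of CPM, P-HC24 over P-LC24 (left) and I-HC32 over I-LC32 (right), for named genes in the activated CD4 T cells without Foxp3 (class), other CD4 T cells, CD8 T cells and B cells, with exact 95% counting intervals. A ratio against a count of 0 is not drawn (Il1rl1 in other CD4 T cells). Vim and Crip1 moved alike in several classes, and Nt5e had its highest ratio, 1.37, in the class.

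The highest genes of the intervention comparison were Cxcl2, Fn1, Saa3, Slpi, Ier3, Ifitm2, Prg4, Dach2, Atf3, Lyn, Lyz2 and Il1rl1. Several were carried by marker-rich cells, with 91.3% of the Cxcl2 UMIs of I-HC32, 89.0% of those of Fn1 and 91.8% of those of Saa3 in those 4 cells. Il1rl1, Dach2 and Pard3 were not: 1.82% of the Il1rl1 UMIs and none of those of Dach2 or Pard3 lay there. Without the marker-rich cells the highest genes were Ifitm2, Dach2, Atf3, Slpi, Lyz2 and Il1rl1, in that order. The ranks of Ifitm2, Atf3, Slpi and Lyz2 thus did not rest on those cells alone. As described above, the spread of Lyz2 over cells followed the library in B cells too, and the part of stray RNA in these ranks was not tested.

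Il1rl1 lies on chromosome 1 (40468730 to 40504575, plus strand). A UMI of it was found in 0 of 58 (which allows up to 5.17%), 1 of 52, 3 of 143 (2.10%) and 20 of 156 cells (12.8%), with 0, 8, 16 and 110 UMIs. The log2 ratio of I-HC32 over I-LC32 was 2.54 (1.78 to 3.40), and no cell held more than 18.2% of the UMIs of I-HC32. Il1rl1 was found in 0 of 85, 0 of 56, 0 of 107 and 2 of 88 other CD4 T cells, where a count of 0 allows up to 3.53%, 5.36% and 2.80%. Other lymphocytes of I-HC32 also had more of it, with 27 UMIs against 2 in CD8 T cells and 94 against 35 in B cells, a log2 ratio of 1.04 (0.47 to 1.65).

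The 20 cells with Il1rl1 in I-HC32 had the type 2 helper genes Gata3 and Il4 more often than the rest. Dividing the class at this gene was a choice made after its values had been seen, and the genes below are a description of these cells. Gata3 was found in 85.0% (62.1 to 96.8) of the 20 cells and in 39.0% (30.7 to 47.7) of the 136 without Il1rl1. The cytokine Il4 was found in 40.0% (19.1 to 63.9) of the 20 and in 0 of 136, which allows a share of up to 2.21%. Areg, the growth factor amphiregulin of tissue repair, was found in 50% (27.2 to 72.8) against 5.15% (2.09 to 10.3), and Il2ra in 45% (23.1 to 68.5) against 0.735% (0.0186 to 4.03). Il13 and Il5, the other main cytokines of type 2 cells, were found in 1 of 20 and 0 of 20 cells, the latter allowing a share of up to 15.0%. Ptgdr2, another marker of type 2 helper cells, was found in 0 of 20 and 0 of 136 cells. Whether some of the 20 cells lost Foxp3 to sampling depth was not tested. Of the 4 cells with Il1rl1 in other libraries, all had Gata3 and 1 had Il4.

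General genes of the class were present in both groups, with S100a4 in 60.0% (36.1 to 80.9) against 44.9% (36.3 to 53.6), Cd44 in 45% against 55.9% and Ccl5 in 25.0% against 25.7%. Cxcr3, at 15.0% (3.21 to 37.9) against 33.8% (25.9 to 42.4), and Ctla4, at 35.0% (15.4 to 59.2) against 61.8% (53.0 to 70.0), had overlapping intervals. Tnfrsf18 was found in 80.0% (56.3 to 94.3) against 54.4% (45.7 to 63.0). Of the selecting genes, Tnfrsf4 was found in 75.0% against 45.6%, Rora in 50% against 69.9% and Izumo1r in 15.0% against 44.9%, and since each cell had to carry at least 1 of them, these shares depend on each other through the rule. Ikzf2, at 20% (5.73 to 43.7) against 39.0%, was not more frequent, and Klrg1, a receptor of terminally differentiated effector cells, was found in 30.0% against 1.47%. Pard3, a polarity protein, was found in 16 of 20 cells against 6 of 136, Dach2, a transcriptional cofactor, in 10 of 20 against 1 of 136, and Furin, a protease that matures cytokines, in 15 of 20 against 25 of 136. Lyz2, the measure of stray macrophage RNA, was alike at 70.0% and 68.4%, and 1 of the 20 cells was marker-rich. The 20 cells were deeper, with a median of 8040.5 UMIs against 6299.5, and the part of depth in these shares was not tested.

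**Figure D5:**
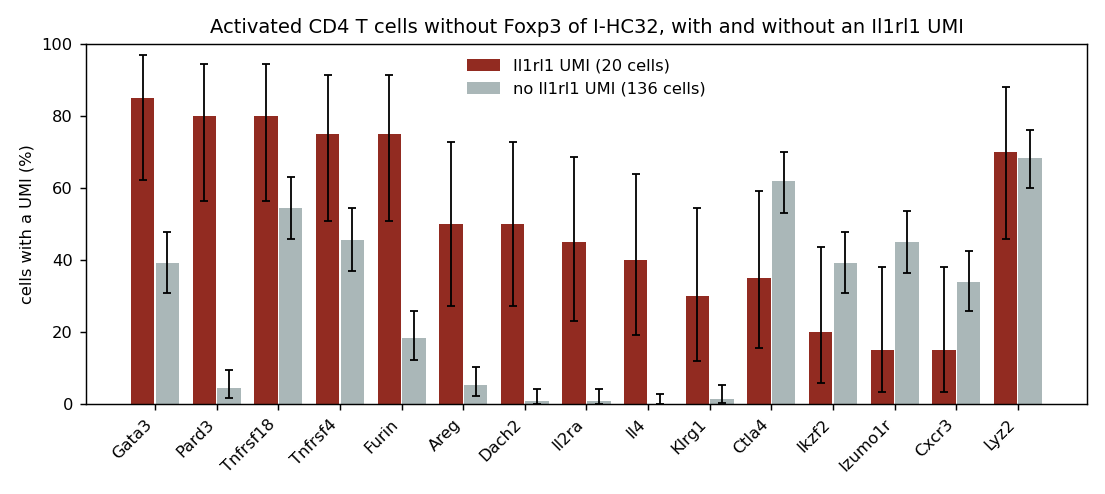
Percent of activated CD4 T cells without Foxp3 of I-HC32 with at least 1 UMI of each gene, for the 20 cells with an Il1rl1 UMI and the 136 without, with exact 95% counting intervals. Gata3, Pard3, Furin, Areg, Dach2, Il2ra, Il4 and Klrg1 were more frequent beside Il1rl1, and Lyz2 was alike.

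Areg, like Il1rl1, was highest in I-HC32. It was found in 3, 4, 3 and 17 cells of the class with 4, 15, 3 and 85 UMIs, and its log2 ratio of I-HC32 over I-LC32 was 4.58 (2.99 to 6.89). CD8 T cells, with 2 and 55 UMIs, and B cells, with 19 and 226, had ratios of 6.16 (4.24 to 9.24) and 3.19 (2.51 to 3.95), so more Areg in I-HC32 was not confined to the class. Of the 58, 52, 143 and 156 cells, Pard3 was found in 3, 2, 10 and 22, Dach2 in 0, 0, 2 and 11 and Furin in 14, 7, 20 and 40. Furin was thus found in 24.1% of the cells of P-LC24, which had no cell with Il1rl1, and was not particular to I-HC32.

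Few genes passed 1.5-fold in both comparisons, whether the same way or in opposite ways. Of 1287 genes compared in both, 16 (1.24%) were higher by 1.5-fold or more in both and 6 (0.466%) lower in both. Another 2 (0.155%) were higher at week 24 and lower at week 32, and 16 (1.24%) the reverse. Among all genes of each comparison, 9.27% were higher and 24.4% lower at week 24, and 6.74% and 2.72% at week 32. The 16 higher in both were largely macrophage genes such as Lyz2, Apoe, Fn1 and Cst3, and none of 1173 genes was higher in both without the marker-rich cells. Ramp3, a co-receptor for adrenomedullin, was among the 16 and was not a gene of those cells: it had 36 and 67 UMIs at week 24, a log2 ratio of 0.96 (0.36 to 1.59), and 70 and 223 at week 32, a log2 ratio of 1.43 (1.04 to 1.84). Without the marker-rich cells Ramp3 fell below the minimum of 100 UMIs at week 24. S100a4 and Rbm3 were higher and then lower, and 10 genes were lower at week 24 and higher at week 32 without the marker-rich cells. Creb1, Nup98, Polr2a and Mpp7 were among both the 16 and the 10, while Btla, an inhibitory receptor, was only among the 16.

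Mki67, a marker of cycling cells, was found in 12.1% (4.99 to 23.3), 3.85% (0.469 to 13.2), 4.90% (1.99 to 9.83) and 1.28% (0.156 to 4.55) of the class, or 7, 2, 7 and 2 cells. T cell receptor variable genes were sparse: a beta variable gene was read in 31.0%, 17.3%, 14.7% and 19.9% of the class, and the leading gene, Trbv20, Trbv3, Trbv2 and Trbv2, was found in 4, 2, 5 and 7 cells. No barcode of the class was shared between libraries, although 144 kept barcodes were shared over all pairs of libraries. Removing the highest Scrublet doublet scores, at an assumed 0.8% for each 1000 cells, would have taken 0, 1, 3 and 1 of these cells.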

How the data were processed

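The deposited data were UMI counts per gene and cell from 4 single-cell RNA-seq libraries, made by the authors with Cell Ranger 9.0.1 on GRCm39, with Seurat 5.3 used later according to the submitters' processing notes. The study's methods name a correction for free RNA, but the deposited counts were whole numbers and were used as they were. Cells with at least 500 UMIs and 300 genes and at most 10% mitochondrial UMIs were kept (member totals 438511, 418846, 978683 and 1156108 UMIs). UMIs were summed per library and class, scaled to CPM and compared as ratios with exact conditional Poisson intervals, and shares had exact Clopper-Pearson intervals. A gene was called past 1.5-fold with at least 100 summed UMIs. Named genes were the 14 highest and 10 lowest against each other CD4 class with at least 200 UMIs, the 12 highest and lowest per diet comparison, genes past 1.5-fold in both, the leading genes of 37 lists and the markers. Genes of the rule, receptor, immunoglobulin, haemoglobin, mitochondrial, ribosomal and unnamed genes were left out. Members and lists were chosen with earlier results of these data known. Alternatives changed limits, filters, scaling, doublet removal (scanpy 1.11.5) and depth, with cells thinned to 2000 UMIs. Scripts (Python 3.11.15 with pandas 2.3.3, scipy 1.17.1, matplotlib 3.10.9 and numpy 2.4.6) were tested on simulated data. Gene positions came from the GENCODE annotation of GRCm39. Some genes are not reported here.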

Additional observations from a re-analysis of the deposited data

Results flagged for a closer look

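In 17 genes described here from both comparisons, the class was past 1.5-fold in opposite directions in P-HC24 over P-LC24 and in I-HC32 over I-LC32. Of 1287 genes compared in both, 16 (1.24%) were lower and then higher and 2 (0.155%) higher and then lower. Among all genes of each comparison, 9.27% were higher and 24.4% lower at week 24, and 6.74% and 2.72% at week 32. Whether these counts differ from those of 2 unrelated comparisons was not tested. With 1 library a condition the difference between the 2 comparisons was not tested, and the same mice were sampled at both times. S100a4 and Rbm3 were higher at week 24 and lower at week 32, at 0.99 and -0.93 for S100a4 and 0.62 and -0.64 for Rbm3 on the log2 scale. The other 15 were lower at week 24 and higher at week 32. Of these 15, Btla was at -0.72 and 0.76, and Itpr1, an endoplasmic calcium channel, at -0.81 and 0.75. Tank, an adaptor of NF-kB signalling, was at -0.82 and 0.59. Rnf19a, a ubiquitin ligase, was at -0.60 and 0.59, and Pik3c2a, a lipid kinase, at -1.06 and 0.59. Among genes of transcription, Creb1 was at -0.86 and 0.71, Polr2a, the largest subunit of RNA polymerase II, at -0.73 and 0.92, Ell2, an elongation factor, at -0.90 and 1.03, Chd3, a chromatin remodeller, at -0.89 and 0.64, Scml4 at -0.70 and 0.59, and Nup98, a nuclear pore protein, at -1.16 and 0.97. The remaining ones were Mpp7 at -0.95 and 1.58, Lrig1 at -1.13 and 0.83, Atp10a at -1.03 and 0.59, and Ssh2, a cofilin phosphatase, at -0.71 and 0.75. When the marker-rich cells were left out, Btla, Tank, Scml4 and Rnf19a kept their signs but were not past 1.5-fold in both comparisons, Lrig1 and Pik3c2a fell under the minimum of 100 UMIs at week 24, and Kif1b was added, so that 10 of 1173 genes were lower then higher. Other CD4 T cells had the same signs for Mpp7, at -1.27 and 1.46, and another sign at week 32 for Btla, at -0.64 and -0.55.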

How the results depend on the processing

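In the share of CD4 T cells the 4 libraries kept their order with at least 2 selecting UMIs and with Rora not used, and P-HC24 lay below P-LC24 after thinning. No paired analysis was possible because each condition has 1 library. Of 216 values of shares and counts under alternatives, 122 stayed within the counting interval or within 1.5 times the value reported, and 94 moved. In what follows values run P-LC24, P-HC24, then I-LC32, I-HC32. With at least 2 UMIs of the selecting genes the class was 27.3, 28.4, 37.1 and 46.4% of CD4 T cells, 4.11, 3.03, 6.42 and 11.8% of T cells and 0.797, 0.448, 1.32 and 1.58% of kept cells. With Rora not used it was 23.3, 30.3, 32.2 and 43.2%, 3.51, 3.23, 5.57 and 11% and 0.681, 0.477, 1.15 and 1.47%. With each cell thinned to 2000 UMIs it was 25.8, 24.5, 37.1 and 50.4%, 1.8, 1.25, 3.37 and 6.63% and 0.340, 0.177, 0.674 and 0.875%. Of kept cells it was 0.988, 2.85 and 2.59% in P-HC24 and the week 32 libraries at a mitochondrial limit of 5%, and 1.2, 2.31 and 3.09% with no condition on Cd79a.

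For P-HC24 over P-LC24, higher and lower genes were 227 and 512 with no condition on Cd79a, 281 and 710 from 50 UMIs, 46 and 103 from 200 UMIs, 311 and 574 at 1.2-fold and 43 and 77 at 2-fold. There were 70 higher genes without the cells of 10 or more macrophage or B cell marker UMIs, an alternative added after the data had been seen, 191 lower with at least 2 selecting UMIs and 160 lower with Rora not used. Higher genes were 27.5% of those past the limit in the values reported and 39.6% with Rora not used, and the cause was not tested. For I-HC32 over I-LC32 the counts were 450 and 182 with no condition on Cd79a, 512 and 263 from 50 UMIs, 88 and 24 from 200 UMIs, 793 and 486 at 1.2-fold and 61 and 12 at 2-fold. Against other CD4 T cells, 34 genes were higher with Rora not used, 557 at 1.2-fold and 92 at 2-fold. Lower genes were 10 with no condition on Cd79a, 42 with at least 2 selecting UMIs, 8 with Rora not used, 29 with no ribosomal or mitochondrial genes in the scale, 28 and 11 from 50 and 200 UMIs, 101 at 1.2-fold and 1 at 2-fold, and 29 to 45 where a library was left out, which asks for agreement in 3 libraries only. Against Foxp3 cells, 87 genes were higher with Rora not used, 311 and 62 from 50 and 200 UMIs, 318 and 69 at 1.2-fold and 2-fold, and 207 to 436 where a library was left out. Lower genes were 111 and 13 at 1.2-fold and 2-fold and 78 to 141 where a library was left out, which with 1 to 14 cells a library has little weight.

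Of 1139 values of named genes in the diet comparisons, 1012 stayed within the counting interval, 118 moved and 9 reversed. Without the marker-rich cells, Cebpb was at -0.41, Zeb2 at -0.41 and Zfp36 at -0.45 at week 24, and Zeb2 at -0.97 at week 32. With the mean of each cell's CPM, Cebpb was at -0.01 and Zeb2 at -0.26 at week 24, and Zeb2 was at -0.04 there with no condition on Cd79a. Apoe at week 32 was at -1.71 with Rora not used and at -1.19 after removal of doublet calls. Against other CD4 T cells, Nkg7 was at -0.61 with Rora not used, since its cells then stood on the other side. With 52 to 156 cells a library, a share of 10% carries a wide interval, and differences within it were not detectable at this depth.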
